A study of Mus musculus with 5 samples.

Results

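Intergenic binding sites of the transcription factor PU.1 that lie 1 to 50 kb from the nearest protein-coding gene are described here, in a mouse acute myeloid leukaemia whose PU.1 level was raised. A site was a member if its summit lay on chromosomes 1 to 19, inside no protein-coding gene of the RefSeq GRCm38.p6 gene table, and over 1 kb but at most 50 kb from the nearest end of such a gene. Of the 11111 summits deposited for the series, 3159 (28.4%) met this rule, or 28.9% of the 10920 summits on chromosomes 1 to 19. The rule used position only, so the scores of the sites and their spacing were free to vary. It does limit which genes can be neighbours, to those with over 1 kb of intergenic DNA beside them. It also limits which sequences could be read, as described below.

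Chromatin immunoprecipitation with sequencing was carried out with the T-21 antibody against PU.1 on spleen cells of C57BL/6 recipient mice with the leukaemia AML-246. Both groups lack p53 (p53-/-) and carry a short hairpin RNA against PU.1 that is linked to GFP and is switched off by doxycycline (Dox). The PU.1 low group was untreated (2 libraries), and the PU.1 high group received Dox for 2 days (3 libraries), after which the cells' own PU.1 returned. The libraries of a group are labelled technical replicates of 1 leukaemia, ages are not given in the labels, and the sources used here do not name the promoter that drives the hairpin. One summit list was deposited for the whole series. Its name sets PU.1 high against PU.1 low, and it is read here as sites with more PU.1 after Dox. It holds no value per library, so read depth is unknown and neither a spread between libraries nor a test between the groups can be given. Read as a contrast, the list need not hold sites bound alike in both groups. A gene or stretch of DNA without a listed site may therefore still bind PU.1. The list concerns binding and not expression, so the labelled cell type could not be checked against expressed markers.

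PU.1, encoded by Spi1, is an ETS family factor that recognises a purine-rich element built around GGAA. It is required for the development of macrophages, neutrophils and B cells. In myeloid cells much of its binding lies away from promoters, at enhancers, where it opens chromatin together with partners such as C/EBP, AP-1, RUNX and IRF factors. An enhancer can act over a long distance and can skip the nearest gene, so each gene named below is a neighbour by distance and was not shown to be a target.

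Sequence could be read at 29 of the 3159 members, those whose summit fell in a 300-base RefSeq promoter window (250 bases before to 50 after a transcript start) of the GRCm38.p6 table, and all 29 windows belonged to long non-coding RNAs (lncRNAs). The rule keeps members over 1 kb away from protein-coding genes, so windows of such genes were largely excluded in advance. The 29 need not represent the members whose sequence could not be read. A few of the 29 windows are shown to let the PU.1 element be seen beside the summit. Each is written 5′ to 3′ on the strand of its lncRNA, at most 75 bases to each side of the summit within the window, and the summit is base 76. Capitals mark AGGAAG (or its reverse complement CTTCCT) and the ETS-IRF composite element, which is GGAA and TGAAA with 1 base between them (or its reverse complement). Gm32039 (chr1:134095182-134095332, minus strand, nearest gene Chit1) had the highest score of the 29, 17.7. The lncRNAs 6530402F18Rik (chr2:29252944-29253077, minus strand, nearest gene Ntng2, score 15.7) and Gm46838 (chr3:105825818-105825968, minus strand, nearest gene Rap1a, score 6.29) hold the longer PU.1 element GAGGAAGT. Gm38832 (chr6:72161864-72161961, plus strand, nearest gene St3gal5, score 16.7) and Gm20559 (chr6:3346089-3346183, minus strand, nearest gene Samd9l, score 10.6) hold the composite element. Gm38933 (chr11:83604766-83604850, minus strand, score 7.06) lies beside the chemokine gene Ccl6.
Gm32039: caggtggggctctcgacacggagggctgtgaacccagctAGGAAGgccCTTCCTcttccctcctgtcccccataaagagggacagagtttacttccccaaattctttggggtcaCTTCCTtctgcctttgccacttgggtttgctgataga
6530402F18Rik: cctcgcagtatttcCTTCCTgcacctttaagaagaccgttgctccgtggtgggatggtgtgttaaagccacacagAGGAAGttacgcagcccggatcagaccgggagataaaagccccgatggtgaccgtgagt
Gm46838: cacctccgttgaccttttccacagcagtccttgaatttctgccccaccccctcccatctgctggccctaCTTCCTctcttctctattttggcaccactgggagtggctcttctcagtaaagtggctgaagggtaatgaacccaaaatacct
Gm38832: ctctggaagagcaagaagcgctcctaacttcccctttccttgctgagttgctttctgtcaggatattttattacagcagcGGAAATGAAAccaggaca
Gm20559: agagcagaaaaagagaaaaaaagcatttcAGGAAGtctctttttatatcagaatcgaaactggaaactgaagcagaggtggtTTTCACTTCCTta
Gm38933: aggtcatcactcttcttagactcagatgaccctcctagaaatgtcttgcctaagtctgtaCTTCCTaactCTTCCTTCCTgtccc

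The centre of the nearest AGGAAG lay 2.5 bases from the summit in 6530402F18Rik, 3.5 in Gm46838 and 1.5 in Gm38933. It lay 14.5 bases away in Gm20559 and 24.5 in Gm32039. Gm38832 has no AGGAAG in its window, and its nearest GGAA lay 6.5 bases from the summit. Over the 29 windows, searched whole and on both strands, 21 (72.4%, Wilson 95% interval 54.3 to 85.3) held AGGAAG. The same element was found in the windows of 64.2% of the 530 summits of the list that lie in a promoter window and are no member, in 36.8% of the 11485 windows of non-coding genes without a summit, and in 34.8% of all 32172 windows without one. In the 21 members' windows the median distance from summit to AGGAAG was 22.5 bases, and 14 had its centre within 50 bases. Searched only near the summit, AGGAAG was in 48.3% of the 29 with 50 bases to each side, 55.2% with 100 and 69.0% with 200. GAGGAAGT, which contains AGGAAG, was in 2 of the 29 windows (6.9%, 1.91 to 22.0). It was in the windows of 10.9% of the 530 other summits and in 3.23% of non-coding windows without a summit. GGAA alone was in all 29, but also in 96.4% of those non-coding windows. A GGAA centre lay within 10 bases of the summit in 22 of 29 windows (75.9%, 57.9 to 87.8), and at 69.6% of the 530 other summits. By comparison, 21.4% of all bases in the summit-free non-coding windows were that near a GGAA centre.

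Elements of other factors were counted in the same 29 windows. The ETS-IRF composite was in 2 (6.9%) against 0.679% of non-coding windows without a summit. The C/EBP element TTGCNNAA was in 6 (20.7%, against 12%), the AP-1 element TGANTCA in 4 (13.8%, against 9.33%) and the RUNX element TGTGGT in 8 (27.6%, against 20%). The E-box CANNTG, which many helix-loop-helix factors bind, was in 23 (79.3%, against 78.4%). The 530 other summits in promoter windows are not limited to non-coding genes, so all 32172 windows without a summit are set beside them. TTGCNNAA, TGANTCA and CANNTG were less frequent at these summits (8.49%, 5.47% and 65.1%) than in those windows (10.8%, 7.84% and 72.4%). TGTGGT was at 18.3% against 16.7%, and the composite at 2.64% against 0.684%. The interferon response element, GAAA repeated with 2 bases between, which can overlap the composite, was in 2 of the 29 windows (6.9%). It was in 3.6% of the non-coding windows without a summit. With 29 windows these shares are loose, and a match is a run of letters, not a site shown to be bound.

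The members were spread over intergenic DNA at 5.77 sites per Mb (exact Poisson 95% interval 5.57 to 5.97), as 3159 sites in 548 Mb that met the distance rule. This was denser than intergenic DNA farther than 50 kb from a gene, which had 1450 sites and 1.73 per Mb (1.65 to 1.83). It was also denser than the interior of genes over 10 kb from an end (4.64 per Mb, 4.48 to 4.8). It was sparser than the parts of genes 1 to 10 kb from an end (7.52 per Mb, 7.17 to 7.87) and than the DNA within 1 kb of a gene end (16.8 per Mb, 15.9 to 17.7). All intervals count sites as if each were placed independently. Sites cluster, as shown further on, so the intervals are too narrow, and they cover counting error only.

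Density was lower farther from the gene. Between 1 and 2 kb there were 243 members, or 8.14 per Mb (7.15 to 9.23). The 496 members at 2 to 5 kb came to 6.53 per Mb (5.96 to 7.13), and the 647 at 5 to 10 kb to 6.7 per Mb (6.19 to 7.24), so these bins do not differ beyond their intervals. The 1008 members at 10 to 25 kb came to 5.58 per Mb (5.24 to 5.94), and the 765 at 25 to 50 kb to 4.64 per Mb (4.32 to 4.98). The median distance was 12.1 kb, with quartiles of 5.38 and 24.4 kb, and 1386 members (43.9%, Wilson 42.2 to 45.6) lay within 10 kb of the gene.

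**Figure D1:**
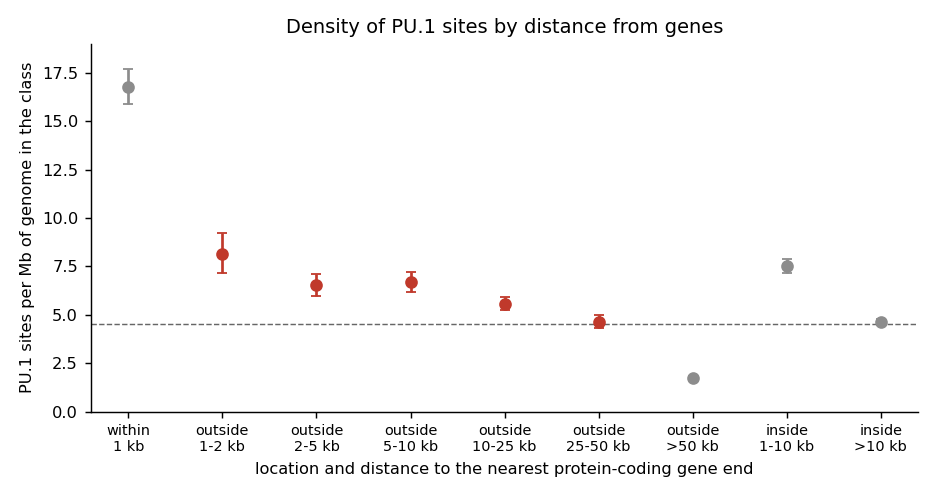
Sites per Mb of intergenic territory in 5 ranges of distance (kb) from the nearest protein-coding gene end, with exact Poisson 95% intervals as bars, beside the other location classes. The value is 8.14 at 1 to 2 kb and 4.64 at 25 to 50 kb, above the 1.73 of intergenic DNA over 50 kb away.

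More members lay beyond the start of their nearest gene than beyond its end of transcription. The strand of the nearest gene was known for 2508 members, and 1547 of these (61.7%, 59.8 to 63.6) were upstream, while 54.3% of the matching territory was upstream. Upstream DNA held 6.59 sites per Mb (6.27 to 6.93) and downstream DNA 4.88 (4.57 to 5.19), a ratio of 1.35. The 651 members beside a gene of unknown strand came to 5.6 per Mb (5.18 to 6.05). The difference was present in each distance range, with a ratio of 1.35 at 1 to 2 kb, 1.45 at 2 to 5 kb, 1.34 at 5 to 10 kb, 1.29 at 10 to 25 kb and 1.42 at 25 to 50 kb. At 25 to 50 kb the densities were 5.49 (4.95 to 6.06) upstream and 3.87 (3.38 to 4.41) downstream. At 1 to 2 kb the intervals, 7.46 to 10.9 upstream and 5.33 to 8.41 downstream, overlap.

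**Figure D2:**
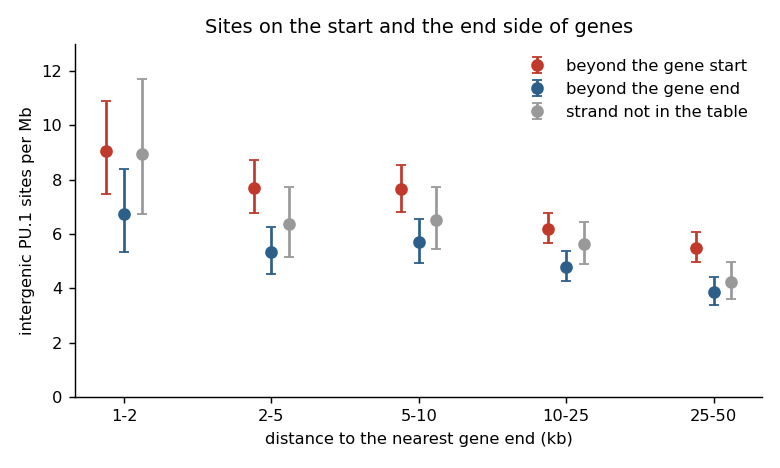
Sites per Mb upstream of the gene start and downstream of the gene end, by distance (kb) from the nearest gene, with exact Poisson 95% intervals. Upstream values run from 9.07 at 1 to 2 kb to 5.49 at 25 to 50 kb and lie above the downstream values, 6.74 and 3.87, in each range.

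Gaps between genes were then sorted by what flanks them. Gaps flanked by a pair of gene starts held 713 members at 7.23 per Mb (6.71 to 7.78), and 20.1% of these 2313 gaps had a member. Gaps between a start and an end held 1133 members at 5.54 per Mb (5.22 to 5.87), with a member in 12.2% of 6285 gaps. Gaps between a pair of transcript ends held 306 members at 4.71 per Mb (4.2 to 5.27), with a member in 10.1% of 2108. Density also differed with the width of the gap. It was 7.88 per Mb (7.15 to 8.68) in gaps of 2 to 20 kb, 6.77 at 20 to 50 kb, 6.52 at 50 to 100 kb, 4.96 at 100 to 500 kb and 2.6 (2.2 to 3.05) in gaps over 500 kb.

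Between chromosomes the density ran from 4.03 per Mb on chromosome 14 (3.28 to 4.9, 100 members) to 7.73 on chromosome 19 (6.39 to 9.25, 118 members). Chromosomes 17 and 11 were near the upper value, at 7.27 and 7.26, and chromosome 7 near the lower, at 4.2 per Mb.

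The score of a site is the authors' peak-caller value on a −log10 scale, and it measures how surely a site stood out, not how much binding changed. Members scored a median of 8.36 (95% interval 8.32 to 8.64), with quartiles of 5.78 and 11.9 and a range of 1.33 to 43.3. The median was 8.72 for intergenic sites over 50 kb away, 8.64 inside genes 1 to 10 kb from an end, 8.72 deeper inside genes and 7.7 within 1 kb of a gene end. A score of at least 10 was reached by 1185 members (37.5%, 35.8 to 39.2), the same share as among all summits on chromosomes 1 to 19 (4090, 37.5%). A score of at least 20 was reached by 130 (4.12%, against 3.93% of all). The score did not follow the density: the median was 8.68 at 1 to 2 kb, 8.18 at 2 to 5 kb, 8.36 at 5 to 10 kb, 8.36 at 10 to 25 kb and 8.64 at 25 to 50 kb. Members upstream of a gene had a median of 8.6 and those downstream 8.0, while those of unknown strand had 8.77. At 1 to 2 kb the order was the other way, 8.0 upstream and 8.8 downstream. In each farther range the upstream median was the higher.

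**Figure D3:**
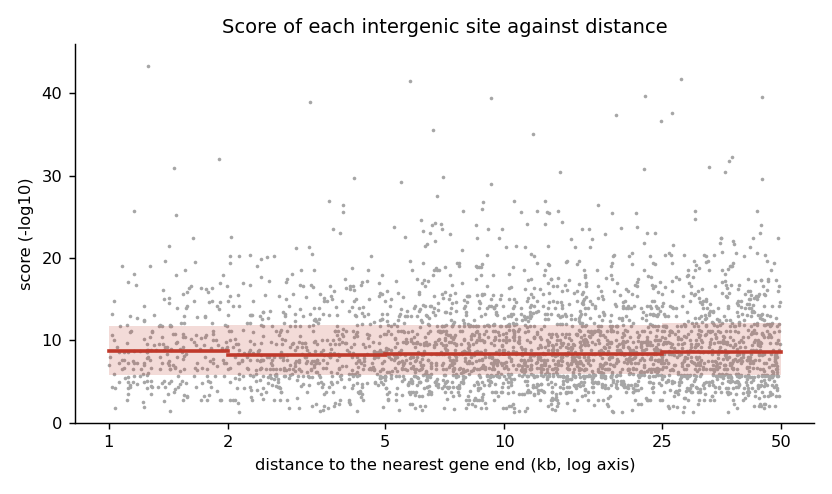
Peak-caller scores (−log10 scale) of the members by distance (kb) from the nearest gene end. The median stays between 8.18 and 8.68 over the 5 ranges, while the highest score is 43.3.

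The 10 members with the highest scores lay 1.26 to 44.9 kb from their nearest genes, and these genes had mixed roles. The site beyond the transcript end of Tiprl, a regulator of protein phosphatases, scored 43.3 (chromosome 1, position 165211023, 1.26 kb downstream). A site 28.0 kb upstream of Fth1, the heavy chain of the iron store ferritin, scored 41.7 (chromosome 19, position 9952570). A site 44.9 kb upstream of Peli1, a ubiquitin ligase of Toll-like receptor signalling, scored 39.6. Sites downstream of Cracdl (41.5, at 5.78 kb), 3110040M04Rik (39.7, at 22.7 kb) and Exoc2, an exocyst subunit (39.0, at 3.22 kb), were also in this range. The strand of the nearest gene was unknown for Krt80, a keratin (39.4, at 9.25 kb), Pcnx (37.6, at 26.6 kb), Tmem68 (37.4, at 19.1 kb) and Eya1, a developmental coactivator and phosphatase (36.6, at 24.9 kb). The Krt80 site lay inside the lncRNA Gm35853.

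A protein-coding gene was the nearest gene of a member in 2279 of 20560 cases, 11.1% (Wilson 10.7 to 11.5). Of these genes, 1679 had 1 member, 406 had 2 and 194 (8.51%) had 3 or more. A further site inside the gene or within 1 kb of it was found at 832 of the 2279 genes (36.5%, 34.6 to 38.5), against 3287 of the 18281 genes without a member (18%, 17.4 to 18.5). Genes with a member were also longer, with a median span of 29.4 kb against 16.5 kb, and the part of length in the shared sites was not tested. Seen from the sites, 1237 members (39.2%, 37.5 to 40.9) neighboured a gene that held a site of its own.

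Of the genes with a member, 4 had 6 and 15 had 5. The 4 are described, with the one of the 15 whose best site scored highest, Tmem131. Lrrk2, a large kinase linked to Parkinson's disease, had 6 members, all upstream. From the farthest to the nearest they lay 30.9, 28.9, 27.2, 23.8, 11.8 and 7.85 kb away and scored 9.59, 5.4, 8.72, 7.16, 35.1 and 5.26, so 1 site was far above the others. Zfp36l1, which promotes the decay of mRNAs with AU-rich elements, had 6 members 24.4 to 46.7 kb downstream, with scores of 2.06 to 13.2. Irf2bp2, a corepressor that partners IRF2, had 3 members downstream, each at 8.35, and 3 upstream at 4.25, 5.95 and 12.4. Ugcg, the glucosylceramide synthase, had 6 members on both sides, with scores of 4.06 to 10.3. Tmem131 had 5 members upstream that scored 24.0, 9.77, 6.33, 24.8 and 12.5.

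Another site of the list, of any location, lay within 10 kb of 1143 members (36.2%, 34.5 to 37.9). This share was 32.0% for intergenic sites over 50 kb away, 35.1% inside genes 1 to 10 kb from an end, 32.5% deeper inside genes, 28.4% within 1 kb of an end and 33.4% for all sites. Chained to each other at gaps of at most 10 kb, 959 members (30.4%) fell into groups and 2200 stood alone. There were 325 pairs, 74 groups of 3, 15 of 4, 4 of 5 and 1 of 7.

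Described here are the group of 7 and, of the 4 groups of 5, the 2 with the highest-scoring sites. The group of 7 spanned 34.6 kb between Incenp, a mitotic centromere protein, and Fth1 (chr19:9917945-9952570). From the Incenp side to the Fth1 side its scores were 3.24, 4.99, 6.73, 8.46, 12.1, 19.1 and 41.7, each higher than the one before. Beside Myo10 and Retreg1, 5 sites spanned 6.89 kb (chr15:25825898-25832785) and scored 3.6, 4.35, 5.91, 20.5 and 14.0. Between H3f3a, which encodes histone H3.3, and Sde2, 5 sites spanned 13.4 kb (chr1:180822483-180835863) and scored 9.96, 2.82, 13.9, 12.1 and 19.3. Each group thus held sites below and above the median score of the members.

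**Figure D4:**
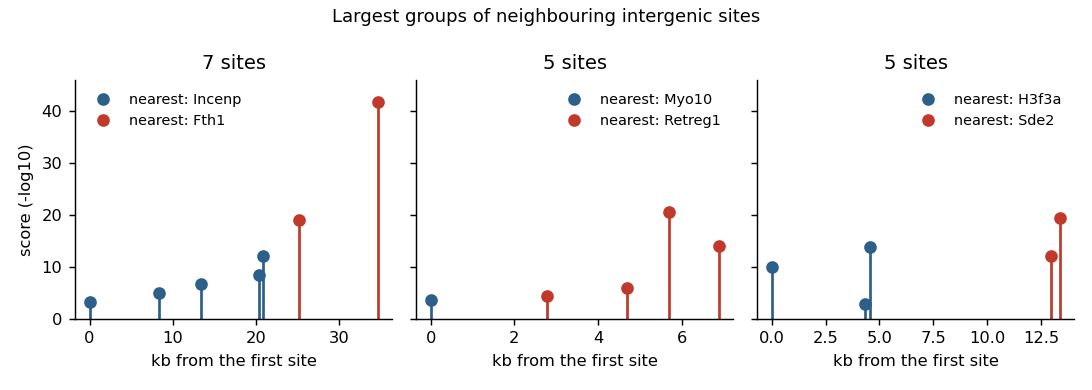
Peak-caller score (−log10 scale) of each site in the group of 7 and in the 2 groups of 5 with the highest-scoring sites, by distance (kb) from the first site of its group. In the group of 7 beside Fth1 the score is 3.24 at the first site and 41.7 at the last.

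At Spi1, which encodes PU.1 (chromosome 2, 91082374 to 91115759), 1 member was found, 1.4 kb past the lower edge of this span, with its summit at 91080977. The strand of Spi1 was not known here, so the distance of this summit from a transcript start is not given. The score of the member, 8.31, was above that of 48.0% of the members, and no site lay inside the gene. The tumour suppressor gene Trp53, whose product both groups lack, was the nearest gene of 0 members and held 0 sites. Most genes were like this: 11.1% of all protein-coding genes had a member. Of the genes without a member, 18% had a site inside or within 1 kb. The 0 counts therefore do not set Trp53 apart, and a link to the genotype was not tested.

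Gene lists were compared by the share of their genes that had a member and by density in the territory nearest to them, beside 11.1% and 5.76 sites per Mb for all protein-coding genes. The lists share some genes, and they were chosen with earlier results of these data known. Their shares and densities are therefore a description, not a test of enrichment. In the 9 lists of myeloid, innate, antigen-presenting and phagocyte genes, 36.4% to 48.8% of the genes had a member and densities ran from 17.4 to 27.4 per Mb. The lower bound of the interval was at least 13 per Mb in each of the 9. Over all 16 lists, 163 of 496 genes (32.9%, 28.9 to 37.1) had a member, at 15.0 per Mb (13.2 to 17.0). The median score was 8.43 over the 256 members of the list genes, against 8.36 over all members. By list it ran from 5.27 in the stem cell and leukaemia list to 10.5 in innate and Fc receptors and 11.2 in cytokines, where 17 of 30 members scored at least 10.

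**Figure D5:**
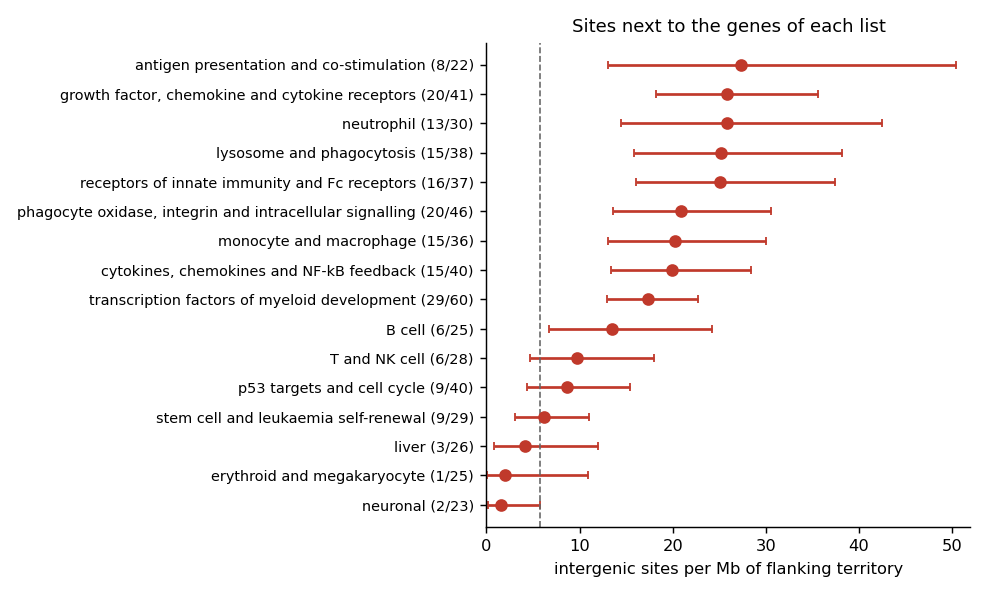
Intergenic sites per Mb of the territory nearest to the genes of each list, with exact Poisson 95% intervals. The reference is the 5.76 per Mb of all protein-coding genes. The 9 myeloid, innate, antigen-presenting and phagocyte lists lie at 17.4 to 27.4 per Mb, and the erythroid and megakaryocyte list at 1.96.

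Among monocyte and macrophage genes, 15 of 36 (41.7%) had a member, at 20.3 sites per Mb (13.1 to 30.0). Marco, a scavenger receptor for bacteria, had a site 7.01 kb downstream that scored 29.8. Lgals3, which encodes galectin-3, had sites at 14.0 kb (24.4) and 22.8 kb (3.03) upstream. Msr1, the class A scavenger receptor, had a site 2.02 kb away (19.4), and Fcgr1, the high-affinity IgG receptor, one 6.96 kb upstream (15.6). Of neutrophil genes, 13 of 30 (43.3%) had a member, at 25.8 per Mb (14.4 to 42.5). Ltf, which encodes the granule protein lactoferrin, had one 9.34 kb upstream (18) and one 3.63 kb downstream (7.93). Il1r2, the decoy receptor of interleukin-1, had sites at 3.51 kb (14.8) and 20 kb (4.99) upstream, and Retnlg, a resistin-like protein, one at 7.44 kb (12.2).

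Transcription factors of myeloid development had a member at 29 of 60 genes (48.3%), with 54 members at 17.4 per Mb (13 to 22.7). Irf4, a partner of PU.1 on composite elements, had a site 10.6 kb upstream (26.9). Cebpb, a C/EBP factor of the macrophage, had one 11.3 kb downstream (21.4), and Ets2, another ETS factor, one 7.8 kb downstream (21.0). Fos, a subunit of AP-1, had 3 members, at 36.2 kb (18.1) and 18.9 kb (20.4) upstream and 41.1 kb downstream (4.62). In 19 of the 29 genes the gene itself held no site, near the share over all genes with a member (1447 of 2279). Chosen after their values were seen, Cebpa, the C/EBP factor of granulocyte progenitors, had a site 20.3 kb upstream (13), and Runx1 had sites 21.8 kb (5.02) and 41.5 kb (6.75) upstream.

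Receptors of innate immunity and Fc receptors had a member at 16 of 37 genes (43.2%), at 25.1 per Mb (16.1 to 37.4). Sirpa, the inhibitory receptor for CD47, had sites on both sides, at 15.7 kb (23.5) and 1.34 kb (11.7). Pilra, a paired inhibitory receptor, had one 1.08 kb upstream (19.1), and Tlr3, the Toll-like receptor for double-stranded RNA, one 4.07 kb upstream (16.6). Fcgr1 belongs to this list too. Growth factor, chemokine and cytokine receptors had a member at 20 of 41 genes (48.8%), with 37 members at 25.8 per Mb (18.2 to 35.6). Il10ra, a chain of the interleukin-10 receptor, had a site at 11.9 kb (20.2). Ccr1, a chemokine receptor, had 3 downstream, at 30.3 kb (18.6), 21.3 kb (7.81) and 8.38 kb (8.19). Csf2ra, the alpha chain of the GM-CSF receptor, had 2 upstream, at 9.73 kb (15.0) and 37.1 kb (6.98). Il1r2 is in this list as well.

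Cytokines, chemokines and NF-kB feedback genes had a member at 15 of 40 genes (37.5%), with 30 members at 19.9 per Mb (13.4 to 28.4) and a median score of 11.2. Il6, the gene of interleukin-6, had 3 members upstream, at 44.5 kb (24.0), 40.2 kb (9.77) and 19.3 kb (17.0). Ccl6 had 2 upstream, at 18 kb (22.9) and 11.7 kb (7.06), the latter in the window of Gm38933 printed above. Tnfaip3, which encodes the NF-kB inhibitor A20, had 4 upstream that scored 3.03, 3.48, 19.4 and 9.71 from the nearest at 28.6 kb to the farthest at 49.0 kb. Nfkbiz, an inducible cofactor of NF-kB, had 4 on 1 side, at 34.8, 30.0, 9.59 and 1.77 kb, with scores of 8.78, 17.7, 13.1 and 2.76. Phagocyte oxidase, integrin and signalling genes had a member at 20 of 46 genes (43.5%), at 20.9 per Mb (13.6 to 30.6). Peli1, named above, belongs to this list. The Src family kinase gene Fgr had sites at 14.4 kb (16.1) and 11.3 kb (12.6) upstream. Dock10, an exchange factor for small GTPases, had sites at 4.55 kb (15.0) and 1.15 kb (7.48) upstream and 46.9 kb downstream (11.8).

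Antigen presentation and co-stimulation genes had a member at 8 of 22 genes (36.4%), at 27.4 per Mb (13.1 to 50.4). Icosl, the ligand of ICOS, had 3 downstream, at 10.7 kb (12.6), 15.4 kb (4.62) and 26.1 kb (20.6), and the protease gene Lgmn had 1 upstream (15.5 at 8.76 kb). Lysosome and phagocytosis genes had a member at 15 of 38 genes (39.5%), at 25.2 per Mb (15.8 to 38.2). They include Fth1 and Ctsd, the gene of cathepsin D, with a site 6.58 kb upstream (24.0).

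Lists of other lineages and programmes were mixed. B cell genes had a member at 6 of 25 genes (24.0%, 11.5 to 43.4), at 13.5 per Mb (6.75 to 24.2). Irf4 is among them, as is Bank1, a B cell scaffold protein, which had 4 members upstream with scores of 10.8, 6.33, 7.29 and 13.4. T and NK cell genes had a member at 6 of 28 (21.4%, 10.2 to 39.5), at 9.76 per Mb (4.68 to 18). The co-receptor gene Ctla4 had a site 21.7 kb downstream (23.8), and Icos had 2 on the same interval between the genes, with scores of 13.9 and 11.7. Stem cell and leukaemia genes had a member at 9 of 29 (31.0%, 17.3 to 49.2), at 6.16 per Mb (3.08 to 11) and a median score of 5.27. Eya1 is one of these, and Myc, the proto-oncogene, had 2 members, at 9.42 kb (14.0) and 12.7 kb (13.2).

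Genes of p53 targets and the cell cycle had a member at 9 of 40 (22.5%, 12.3 to 37.5), at 8.63 per Mb (4.31 to 15.4). Plk2, a polo-like kinase, had a site 10.3 kb upstream (18.1) and Cdk6, a cyclin-dependent kinase, one 39.6 kb upstream (14.8). Erythroid and megakaryocyte genes had a member at 1 of 25 (4.0%, 0.71 to 19.5), upstream of Hemgn, an erythroid nuclear protein (8.2 at 7.51 kb). Liver genes had one at 3 of 26 (11.5%, 4.0 to 29.0), among them Cyp8b1 of bile acid synthesis (13) and the hepatocyte factor Hnf4a (10.4). Neuronal genes had one at 2 of 23 (8.7%, 2.42 to 26.8): Grin1, an NMDA receptor subunit (15.8), and Th, tyrosine hydroxylase (4.99). The intervals of the stem cell, T and NK, p53 and cell cycle, erythroid and liver densities include 5.76 per Mb. The neuronal interval, 0.191 to 5.7 per Mb, ends just below it. By share of genes, the intervals of the stem cell, the p53 and cell cycle and the B cell lists lie above 11.1%.

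Intergenic was defined on protein-coding genes, so non-coding genes could lie at the members. Of the 3159, 558 (17.7%, 16.4 to 19) lay inside a gene that is not protein coding, 524 of them in a lncRNA, while such genes took up 15.4% of the territory. Inside or within 1 kb of one were 694 (22.0%, 20.6 to 23.4), against 18.5% of the territory. Those inside a non-coding gene had a median score of 8.64, and the other members 8.36.

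MicroRNAs silence mRNAs that pair with their seed, bases 2 to 8. Of the members, 12 lay within 5 kb of 13 of the 1005 miRNA hairpins in the table, and 4 within 1 kb of 7 hairpins. The share of the territory that lies this near to a hairpin was not computed, so the counts are given without a comparison. A summit on chromosome 8, position 84207982, with a score of 12.3, lay 536, 690 and 833 bases upstream of Mir23a, Mir27a and Mir24-2, a cluster transcribed together. The nearest protein-coding gene is Zswim4, 2.96 kb away. Mir22 had members 2527 bases (4.33) and 4868 bases (2.76) upstream. Of the mature strands that RefSeq lists for these hairpins, the 3p strands are printed below with the seed in capitals, to show that these strands of the clustered hairpins do not share 1 seed.
mmu-miR-23a-3p: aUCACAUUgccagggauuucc
mmu-miR-27a-3p: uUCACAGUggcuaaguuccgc
mmu-miR-24-3p: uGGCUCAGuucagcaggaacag
mmu-miR-22-3p: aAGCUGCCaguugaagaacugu
Within the same 5 kb limit, Mir7671 contained a summit (5.82) that lay 6.38 kb upstream of Irf1, an interferon response factor. Summits also lay 197 bases from Mir6367 (4.29) and 574 bases from Mir6516 (11.8).

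Sites on either side of the limits of the rule are given as a description. The members closest to the 1 kb limit were at Sh3pxd2a (1002 bases, 6.98), Lpin2 (1015 bases, 8.0) and Cd14 (1018 bases, 13.2). The sites just under it were at Tmem131 (999 bases, 7.29), Chid1 (997 bases, 14.8) and Ccin (996 bases, 4.23). The members closest to the 50 kb limit were at Dkk2 (49881 bases, 9.57), Ado (49771 bases, 14.7) and Sst (49573 bases, 14.2). Just beyond it lay sites at Zfp36l1 (50077 bases, 4.29), Dusp22 (50084 bases, 9.24) and Chd7 (50107 bases, 19.1).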

How the data were processed

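PU.1 ChIP-seq summits of 5 libraries (2 untreated, 3 Dox) were analysed from 1 deposited list on mm10, made with CASAVA 1.8.2 and MACS2 per the submitters' processing notes. The sources used here do not name the aligner, the MACS2 settings or how replicates were combined. The deposited −log10 scores are the authors' peak-caller values, and whether they are p-values or q-values is not stated. The lowest lies near 1.3, the −log10 of 0.05. Scores are repeated: the 3159 members hold 774 distinct values.

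Distances and territory lengths were computed with Python 3.11.15, numpy 2.4.6, pandas 2.3.3 and scipy 1.17.1 from 20560 RefSeq GRCm38.p6 protein-coding genes, after leaving out 105 entries with coordinates below 3 Mb. Strand came from the RefSeq promoter table for 16457 genes (80.0%), of which 83.5% had a window start within 300 bases of the gene-table start. No genome was given, so the planned motif search around all summits was not run, and motifs were counted in promoter windows only. Shares carry Wilson and densities exact Poisson 95% intervals. No test was run, since no value per library exists. Scripts were tested on simulated data.

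Named genes follow a rule: the 10 members with the highest scores, in each of 16 gene lists (561 entries) the 4 or 2 genes with the highest-scoring member, the 5 genes with most members and the 3 largest groups (ties by the highest score), the sites at each limit, Spi1 and Trp53. Of the genes this rule takes, 1 is not reported here. Of the list symbols, 15 were not matched on chromosomes 1 to 19. Members and lists were chosen with earlier results of these data known. The comparisons by gap, list territory, promoter window and miRNA, and the sequences printed, were chosen after the data were seen.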

Additional observations from a re-analysis of the deposited data

Results flagged for a closer look

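The X chromosome lies outside the rule for members. Of its 186 summits, 46 lay outside protein-coding genes and 1 to 50 kb from a gene end. They are given as values outside the comparisons. They came to 1.02 per Mb (exact Poisson 95% interval 0.744 to 1.36) in 45.3 Mb, below the value of each of chromosomes 1 to 19. Their scores ran from 2.26 to 15.0 with a median of 7.65.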

How the results depend on the processing

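Of 58 alternative values, 38 stayed within the error of a share, median or density, or within 1.5 times a count, and 20 did not. Keeping scores of at least 10 left 1185 members with a median of 13.2, 2.16 per Mb, 64.2% on the start side, 16.5% with another site within 10 kb, 20.8% beside a gene with its own site, and 1033 genes, which follows in part from having fewer sites. Measuring from genes of all biotypes gave 4.0 per Mb, 57.6% within 10 kb, 28.9% beside a gene with its own site and 53.6% on the start side, where 48.3% of the territory lay. An upper limit of 25 kb gave 6.25 per Mb, 57.9% within 10 kb and 19.3% at non-coding genes, and one of 100 kb gave 5.2 per Mb and 36.4%. A lower limit of 2 kb gave 39.2% within 10 kb. Counts within 1.5 times still moved past counting error: limits of 25, 100 and 2 kb gave 2394, 3804 and 2916 sites and 1909, 2520 and 2097 genes, and all biotypes 2523 genes. Another site lay within 25 kb of 56.3%, a non-coding gene within 5 kb of 34.5%, and 4651 genes had an end within 50 kb of a member. With 50, 100 or 200 bases searched to each side, GAGGAAGT was in 6.9% of the 29 windows each time and AGGAAG in 48.3%, 55.2% and 69.0%. The start side stayed above its share of the territory in each alternative run.

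No paired analysis was possible because the deposited list holds no value per library, and for that reason no replicate was left out. The share at non-coding genes cannot be given where all biotypes define intergenic. Read depth is unknown.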

Other observations

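Scores repeat among the members. Of the 3159, 87.7% share their score with another member, and the value 6.57 occurs 64 times. A second site of the list lay within 500 bp of 72 members.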
